A study of Mus musculus with 51 samples.

Results

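HELLS-bound regions of mouse testis were read by chromatin immunoprecipitation and sequencing (ChIP-seq) in B6-Prdm9CAST-KI animals (KI), a C57BL/6J (B6) strain in which the Prdm9 gene was replaced by the CAST allele through knock-in. The comparison rests on 4 of the 51 samples of the series, all from sonicated, crosslinked testis nuclei of KI males aged 12 to 14 days post-partum. They are HELLS immunoprecipitations (HELLS library 1 and library 2, n = 2), an immunoprecipitation with control IgG (n = 1) and the input chromatin taken before any antibody (n = 1). Whether the HELLS libraries came from separate animals is not stated, and p-values cover the spread between these libraries only, which may be technical. The deposited table gave read counts in 2675 peaks, of which the 2661 on autosomes are described here, and 11 peaks on chromosome X and 3 on chromosome Y were set aside. The authors' peaks were called in the HELLS ChIP, on pooled or on single libraries as no source used here states, so the presence of HELLS signal in them is no finding, and differences between peaks are what was compared. HELLS ChIP of Hells-deficient testis, which would show what the antibody binds without its target, was not analysed here. Other readouts at the same places came from enriched male germ cells of the same age. ATAC-seq, which reads open chromatin, compared KI (n = 2) with B6 (n = 2). ChIP-seq of H3K9ac, an acetylation mark of active chromatin, compared KI (n = 2) with B6 (n = 3), with 1 Spo11/Spo11 library beside them. ATAC-seq also compared Hells CKO (n = 3) with Hells wt (n = 2). Allele counts of (B6xCAST) F1 hybrids came from ATAC-seq (n = 2) and H3K9ac (n = 1). The Cre line of the Hells CKO is not given in the sources used here. Deposited lists of DMC1 peaks came from whole testis of Hells CKO (n = 2) and of Hells het animals (n = 2) aged 6 weeks. Each genotype had 1 list pooled over its libraries, so the lists show no spread between libraries.

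HELLS, also called LSH, is an ATP-dependent chromatin remodeller of the SNF2 family that is needed for normal DNA methylation in mouse cells. PRDM9 is a histone methyltransferase made in germ cells at the start of meiosis. Its zinc fingers recognise short DNA sequences and thereby choose recombination hotspots, the places where SPO11 breaks DNA and DMC1 loads on the broken ends. The B6 and CAST alleles of Prdm9 encode different zinc fingers and direct breaks to different hotspots. Without PRDM9, breaks form at promoters and other places already marked by H3K4me3.

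Each autosomal peak was placed in 1 of 3 classes. Promoter peaks (1382 of 2661, 51.9%) overlapped 1000 bp on either side of an annotated transcription start. KI-open distal peaks (1183, 44.5%) had no such start and overlapped a region with more ATAC signal in KI than in B6 germ cells. The remaining 96 (3.61%) were other distal peaks. The ATAC difference therefore defines the KI-open class and is not a result about it. The HELLS counts, H3K9ac, allele shares, DMC1 lists and DNA sequence were not used to form the classes. Both the peaks and the ATAC difference were read on B6 copies, however, which bears on the allele shares of the KI-open class.

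The sequences below are the 300 bp around the middle of the 4 peaks with the strongest evidence of relatively high HELLS signal and of the peak with the strongest evidence of relatively low signal, from the GRCm38.p6 (mm10) reference. Capitals mark the best match to a sequence matrix that was built from KI-open distal peaks and is described with its frequencies further on. The matrix was built on odd-numbered autosomes, which hold the Scube2 and Trpm6 peaks, so their matches are not held out from it. The Erc2 and Kcng1 peaks lie on even-numbered autosomes. The sequence near Zfp982 has no match and no capitals. The Scube2 and Trpm6 windows are tandem repeats, in which short units recur along the whole window, and the Erc2 and Kcng1 windows are not.
Scube2 intron, chr7:109845843-109846142, plus strand: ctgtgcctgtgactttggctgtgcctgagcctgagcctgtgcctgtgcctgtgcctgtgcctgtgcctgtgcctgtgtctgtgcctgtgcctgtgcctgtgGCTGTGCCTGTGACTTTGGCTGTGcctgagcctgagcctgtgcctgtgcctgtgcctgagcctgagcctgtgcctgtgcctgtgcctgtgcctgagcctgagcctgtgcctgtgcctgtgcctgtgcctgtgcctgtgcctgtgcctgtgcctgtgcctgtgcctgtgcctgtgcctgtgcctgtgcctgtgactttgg
Trpm6 intron, match on the minus strand, chr19:18793957-18794256, plus strand: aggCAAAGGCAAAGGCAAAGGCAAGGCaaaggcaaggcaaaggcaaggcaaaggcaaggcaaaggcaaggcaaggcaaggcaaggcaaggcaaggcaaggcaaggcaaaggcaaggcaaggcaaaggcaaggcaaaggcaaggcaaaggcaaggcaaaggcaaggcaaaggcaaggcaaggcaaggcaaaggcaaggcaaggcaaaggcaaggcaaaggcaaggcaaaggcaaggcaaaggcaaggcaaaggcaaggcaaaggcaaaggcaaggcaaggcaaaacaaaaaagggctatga
Intergenic, nearest coding gene Erc2, chr14:27617294-27617593, plus strand: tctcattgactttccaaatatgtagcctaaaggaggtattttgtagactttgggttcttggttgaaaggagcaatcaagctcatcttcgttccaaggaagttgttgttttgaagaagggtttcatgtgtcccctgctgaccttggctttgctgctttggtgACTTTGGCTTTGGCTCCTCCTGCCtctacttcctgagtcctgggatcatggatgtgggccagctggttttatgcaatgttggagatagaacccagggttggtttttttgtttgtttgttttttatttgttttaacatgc
Intergenic, nearest coding gene Kcng1, chr2:168318400-168318699, plus strand: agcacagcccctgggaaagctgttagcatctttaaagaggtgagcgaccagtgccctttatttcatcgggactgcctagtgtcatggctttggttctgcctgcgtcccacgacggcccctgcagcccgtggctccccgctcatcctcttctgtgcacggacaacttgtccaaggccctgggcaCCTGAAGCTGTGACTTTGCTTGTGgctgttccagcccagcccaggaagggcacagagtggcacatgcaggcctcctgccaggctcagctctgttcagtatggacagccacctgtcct
Non-coding gene cluster, nearest coding gene Zfp982, chr4:147443545-147443844, plus strand: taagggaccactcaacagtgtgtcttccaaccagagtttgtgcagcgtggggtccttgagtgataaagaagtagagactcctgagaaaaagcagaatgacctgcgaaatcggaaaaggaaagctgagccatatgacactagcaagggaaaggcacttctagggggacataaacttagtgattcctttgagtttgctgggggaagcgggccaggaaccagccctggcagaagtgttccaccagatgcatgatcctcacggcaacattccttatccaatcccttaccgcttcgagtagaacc

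The HELLS libraries held 183110 and 151531 counts in autosomal peaks, against 26707 in IgG and 45274 in input, with a median of 59 and 50 counts a peak in HELLS libraries, 9 in IgG and 16 in input. These totals cover peaks only and are not sequencing depths, and IgG had 0 counts in 24 peaks. Across the 2661 peaks, log2 CPM, which divides counts by each library's scaled total, of HELLS library 1 and library 2 had a Pearson r of 0.814. The r was 0.322 and 0.343 between a HELLS library and IgG, 0.579 and 0.609 between a HELLS library and input, and 0.385 between IgG and input. The points share their libraries. The HELLS libraries differed by more than counting noise (chi-square 4356.34 on 2660 degrees of freedom) and were counted as 2 samples, which does not show that they came from separate animals. Peaks on chromosomes X and Y held 1.06% and 1.13% of the counts of HELLS libraries, against 2.20% in IgG and 2.17% in input. The 3 chromosome Y peaks held 0.687% and 0.771% in HELLS libraries, against 1.77% and 1.82% in IgG and input.

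HELLS signal relative to the controls was higher in KI-open distal peaks than in promoter peaks. KI-open distal peaks held 50.2% and 48.4% of the counts of HELLS library 1 and library 2, against 40.0% in IgG and 41.6% in input. Promoter peaks held 46.4% and 48.1% in HELLS libraries, against 56.1% in IgG and 54.5% in input. Other distal peaks held 3.39% and 3.46% in HELLS libraries, against 3.87% in IgG and 3.89% in input. In each class both HELLS libraries thus lay on the same side of both controls. For KI-open distal peaks the 95% Wilson binomial intervals were 49.99% to 50.4% and 48.2% to 48.7% in HELLS libraries. They were 39.4% to 40.6% in IgG and 41.1% to 42.0% in input. The HELLS mean exceeded the control mean by 8.53 percentage points in KI-open distal peaks and fell by 8.07 percentage points in promoter peaks (two-sided exact permutation p = 0.333 for each, the smallest that 2 against 2 libraries can give). Intervals cover counting error only, and in bulk tissue more cells with a signal and more signal per cell cannot be told apart.

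**Figure D1:**
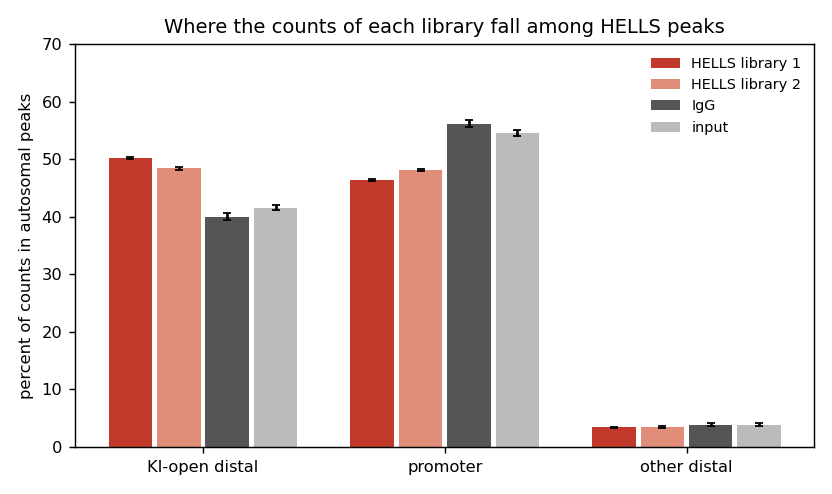
Bars give the percent of each library's counts in autosomal HELLS peaks (y axis, from 0) that fell in each class of peak (x axis). The libraries are HELLS library 1, HELLS library 2, IgG and input, with 95% Wilson binomial intervals. In KI-open distal peaks the HELLS libraries reach 50.2% and 48.4%, above IgG at 40.0% and input at 41.6%, and in promoter peaks they are the lower pair.

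Peak by peak, HELLS was set against the mean of IgG and input with edgeR's quasi-likelihood test, after scaling that puts the typical peak near 0; a log2 fold change of 0 is thus the enrichment of a typical peak and not an absence of HELLS. Of 2661 peaks, 134 (5.04%) were relatively higher and 22 (0.827%) relatively lower at a Benjamini-Hochberg adjusted p under 0.05. KI-open distal peaks supplied 111 of the 134 higher calls and 3 of the 22 lower ones, promoter peaks 21 and 17, and other distal peaks 2 and 2. As a share of each class, 9.38% of KI-open distal peaks, 1.52% of promoter peaks and 2.08% of other distal peaks were called higher, beside 5.04% of all peaks, and the lower calls were 0.254%, 1.23% and 2.08%, beside 0.827%. The number of calls rests on how the controls are treated and on the tool: with IgG and input as one control group, 17 peaks were higher and 9 lower, and DESeq2 gave 11 and 9. In 19 of the 134 higher peaks IgG had 0 counts, and their fitted folds depend on the small count added to a 0; the other 115 had log2 fold changes of 0.70 to 2.48.

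The median log2 fold change over the mean of IgG and input was 0.32 in KI-open distal peaks (quartiles −0.04 and 0.75), −0.16 in promoter peaks (−0.42 and 0.15) and −0.01 in other distal peaks (−0.29 and 0.42), beside 0.05 in all peaks. Each HELLS library gave the same order of the 2 large classes: the median difference in log2 CPM was 0.34 in library 1 and 0.27 in library 2 for KI-open distal peaks, and −0.15 and −0.13 for promoter peaks. The classes overlap widely, since the quartile ranges of KI-open distal and promoter peaks share the span between −0.04 and 0.15. Against input alone, in which no peak had 0 counts, the medians were 0.26, −0.17 and −0.05. Input itself was not flat, at a median of 25 counts per kb in KI-open distal peaks against 28.3 in promoter peaks, and IgG had 13.5 against 16.4. Its part in the class difference was not tested.

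**Figure D2:**
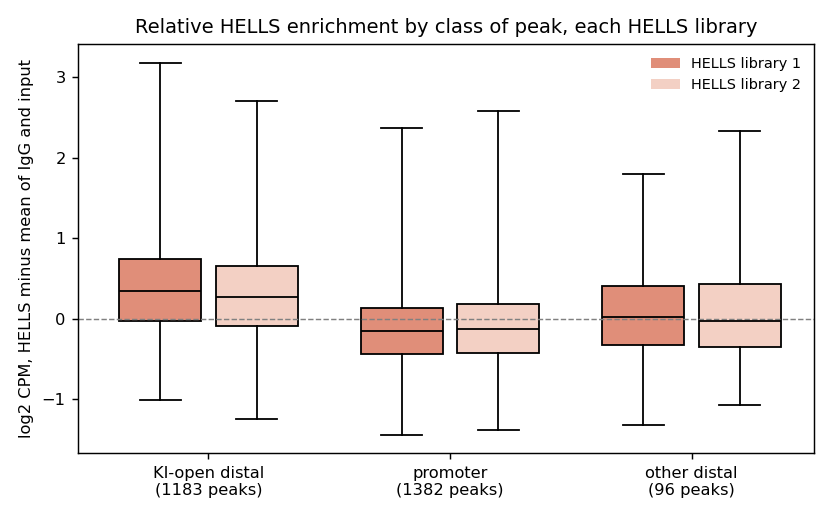
Boxes give the quartiles and median, and whiskers the full range, of the difference in log2 CPM between each HELLS library and the mean of IgG and input (y axis) over the peaks of each class (x axis, with the number of peaks). The medians of KI-open distal peaks are 0.34 and 0.27 in HELLS library 1 and library 2, and those of promoter peaks are −0.15 and −0.13, with wide overlap.

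The 2 large classes differed in base composition and in their place in the genome. KI-open distal peaks had a median GC content of 44.6% and lay a median of 30079 bp from the start of the nearest coding gene. Of them, 650 of 1183 had their middle in an intron, 462 in intergenic DNA, 38 in an untranslated region and 33 in another part of an exon. Promoter peaks had a median GC content of 67.7% and a median distance of 111 bp, and 508 of 1382 had their middle in an untranslated region. Median widths were 599 bp in KI-open distal peaks and 577 bp in promoter peaks. In the deposited segmentation of B6 germ cells into 11 chromatin states, whose states are known here by number only, 587 KI-open distal peaks (49.6%) lay in state 11, which covers 42.0% of the genome, 140 in state 6 and 133 in state 9. Promoter peaks lay in state 1 (1049, 75.9%) and state 2 (225, 16.3%), which cover 1.73% and 1.29% of the genome. Within the KI-open class the median HELLS log2 fold change was 0.33 in state 11, 0.54 in state 9, 0.27 in state 6 and 0.09 in the 14 peaks of state 2.

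Among the peaks called relatively higher, an intronic peak of Scube2 had the most HELLS counts of the autosomal peaks (chr7:109844796-109847190). Scube2 encodes a secreted protein of hedgehog signalling. It had 641 and 450 counts in HELLS libraries, against 42 in IgG and 42 in input (log2 fold change 1.46, SE 0.134, edgeR adjusted p = 5.5e-22). An intronic peak of Trpm6, a magnesium channel gene (chr19:18793532-18794682), had 355 and 205 counts in HELLS libraries, against 7 in IgG and 16 in input (log2 fold change 2.48, SE 0.249, edgeR adjusted p = 6.6e-20). HELLS libraries held more counts in peaks than the controls, so raw counts overstate the contrast. After scaling, the log2 fold change against IgG alone was 1.04 at Scube2 and 2.66 at Trpm6. Against input alone it was 1.86 and 2.28. Repeats annotated in the reference covered 72.8% of the Scube2 and 63.2% of the Trpm6 peak, against a median of 13.2% in KI-open distal peaks. How the authors placed reads that map to several repeat copies is not given in the sources used here. Both peaks were also more open in KI than in B6 germ cells, which is how their class was set: the Scube2 region had 3.51 and 4.03 ATAC CPM in KI, against 0.756 and 0.860 in B6, and the Trpm6 region 4.12 and 4.03 in KI, against 0.559 and 0.258 in B6.

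The next peaks were not dominated by repeats. A peak 4984 bp from the start of Erc2, a gene of the presynaptic active zone (chr14:27616944-27617943), had 241 and 211 counts in HELLS libraries, against 9 in IgG and 24 in input (log2 fold change 1.71, SE 0.248, edgeR adjusted p = 2.4e-09). An intergenic peak whose nearest coding gene is Kcng1, a potassium channel subunit gene (chr2:168318058-168319041), had 214 and 142 counts in HELLS libraries, against 2 in IgG and 27 in input (log2 fold change 2.35, SE 0.358, edgeR adjusted p = 2.2e-08). The Kcng1 value leans on the 2 IgG counts: against input alone its log2 fold change was 0.88 with an edgeR adjusted p of 0.132. A peak far from any coding gene, the nearest being the tenascin gene Tnc at 394444 bp (chr4:64440946-64441972), had 208 and 202 counts in HELLS libraries, against 11 in IgG and 22 in input (log2 fold change 1.49, SE 0.25, edgeR adjusted p = 6.4e-07). An intronic peak of Epg5, an autophagy gene, had 236 and 218 counts in HELLS libraries, against 14 in IgG and 27 in input (log2 fold change 1.32, SE 0.226, edgeR adjusted p = 1.4e-06). At all 4 of these places H3K9ac was higher in KI than in B6; for the Erc2 region it was 38.4 and 48.5 CPM in KI, against 0.774, 2.52 and 0.913 CPM in B6, with an adjusted p of 0.007 by edgeR.

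Both promoter-class peaks among the 8 strongest higher calls differed from each other. The first overlapped the starts of the non-coding gene Gm37800 and the pseudogene Rpl21-ps1 (chr1:184616464-184617657) and had 187 and 131 counts in HELLS libraries, against 4 in IgG and 18 in input (log2 fold change 1.98, SE 0.332, edgeR adjusted p = 6.4e-07). It behaved like the KI-open sites, with 33.3 and 29.0 ATAC CPM in KI, against 2.30 and 1.81 in B6. The second was the promoter of Phlda3, a p53 target gene that restrains Akt (chr1:135765692-135766794), with 253 and 206 counts in HELLS libraries, against 17 in IgG and 22 in input (log2 fold change 1.33, SE 0.224, edgeR adjusted p = 6.5e-07). It was as open in KI as in B6 germ cells, at 30.5 and 33.2 ATAC CPM in KI against 31.9 and 34.1 in B6. Over the class, 116 promoter peaks overlapped a region more open in KI; their median HELLS log2 fold change was 0.27 and 12 were called higher, against −0.19 and 9 in the other 1266.

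The peaks called relatively lower had many control counts, which follows in part from how they were chosen, since IgG and input enter the fold change. The strongest overlapped the starts of Gm13161 and Vmn2r-ps19 in a cluster of non-coding genes near the zinc finger gene Zfp982 (chr4:147442711-147444678), with 205 and 207 counts in HELLS libraries, against 83 in IgG and 147 in input (log2 fold change −1.32, SE 0.133, edgeR adjusted p = 6.6e-20). A peak at Gm21769 (chr8:20121617-20123213) had 284 and 240 counts in HELLS libraries, against 96 in IgG and 151 in input (log2 fold change −1.11, SE 0.121, edgeR adjusted p = 6.7e-17). It had rank 3 by HELLS counts among autosomal peaks. A peak 42892 bp from the chemokine receptor gene Ccr1 (chr9:123925271-123926329) had 163 and 178 counts in HELLS libraries, against 72 in IgG and 90 in input (log2 fold change −1.14, SE 0.156, edgeR adjusted p = 1.8e-10). HELLS libraries were thus high in absolute counts at these places, and the controls were high too. The other strong lower calls were near Zfp988, Zfp987, Gm21119 and Podxl and at the promoter of the spindle kinesin gene Kif11. The 8 strongest lower calls had 48.2 to 94.6 input counts per kb, with a median of 26.7 over all peaks. Whether reads were split between similar copies at these loci was not tested, so their values are uncertain. The peak of rank 4 by HELLS counts among autosomal peaks lay 26451 bp from the insulin-degrading enzyme gene Ide (chr19:37263615-37265238). It had 271 and 228 counts in HELLS libraries, against 73 in IgG and 84 in input. Its lower call (log2 fold change −0.56, SE 0.142, edgeR adjusted p = 0.00393) was not kept against input alone (log2 fold change −0.26).

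Chromatin at the same peaks was read in other libraries, of which the KI and B6 ATAC libraries also set the KI-open class. Over the whole ATAC table, 7.14% of 81887 regions were higher and 2.27% lower in KI than in B6 (edgeR, adjusted p under 0.05). Of the 2582 autosomal regions that hold a HELLS peak, 1308 were higher and 0 lower, with a median log2 fold change of 0.99, and 30 were lower at an unadjusted p under 0.05, beside 3790 of the 81887. DESeq2 also gave 0 lower, whereas leaving out B6 replicate 2 gave 701 lower and leaving out B6 replicate 1 gave 33. The median ATAC level of KI-open distal peaks, a class set by this same difference, was 13.3 and 12.4 CPM in KI, against 1.54 and 1.43 CPM in B6. At promoter peaks it was 67.1 and 61.9 CPM in KI, against 81.1 and 64.1 CPM in B6, and the groups overlap.

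H3K9ac, which the classes did not use, was higher in KI at nearly all KI-open distal peaks. Over that whole table, 12.1% of 91909 regions were higher and 0.208% lower in KI than in B6 (edgeR, adjusted p under 0.05). Of 1181 KI-open distal peaks in it, 1141 lay in a region that was higher and 0 in one that was lower, with a median log2 fold change of 4.55. Their median level was 32.6 and 36.2 CPM in KI, against 0.774, 2.96 and 0.913 CPM in B6, so that the groups stand far apart. The Spo11/Spo11 library had 2.83 CPM at these peaks. It is labelled by Spo11 alone, so it holds little on sites that open with the CAST allele of Prdm9. Of 1376 promoter peaks, 119 were in a region called higher and 0 in one called lower, with a median log2 fold change of 0.17 and levels of 65.3 and 55.9 CPM in KI, against 54.6, 57.4 and 52.0 CPM in B6. Of the 96 other distal peaks, 84 were in the table, and 40 of them lay in a region called higher, none of these 40 in state 1. Over all 2601 autosomal regions that hold a HELLS peak 1291 were called higher and 0 lower by edgeR, with 8 lower at an unadjusted p under 0.05, beside 5747 of the 91909, and 1 lower by DESeq2. Without B6 replicate 2 there were 95 lower, without B6 replicate 3 there were 462 higher, and with either KI library left out there were 0 calls in either direction. The median log2 fold change was between 0.82 and 0.91 in all these fits.

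**Figure D3:**
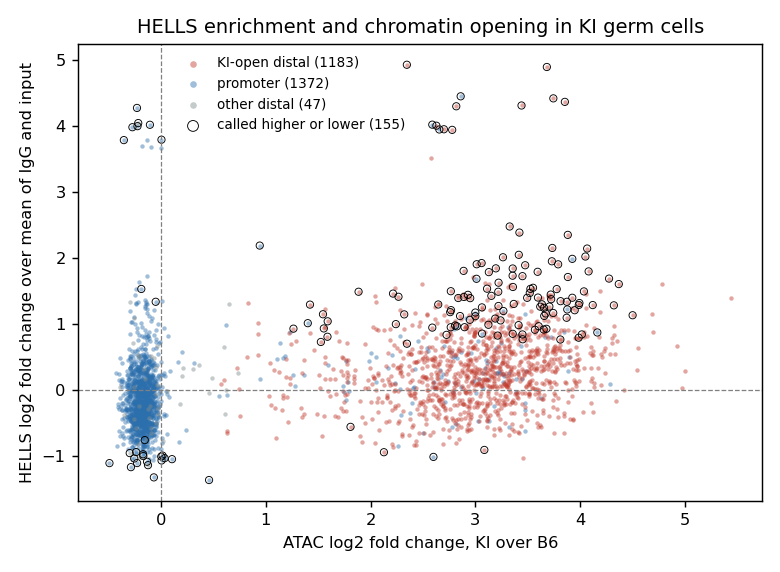
Each point is a HELLS peak in the ATAC table, placed by its ATAC log2 fold change of KI over B6 (x axis) and its HELLS log2 fold change over the mean of IgG and input (y axis) and coloured by class. Rings mark peaks called higher or lower in HELLS. KI-open distal peaks form the cloud at right with a median of 0.32 on the y axis and promoter peaks the column at left with a median of −0.16. The band of points near the top holds peaks with 0 IgG counts, whose folds depend on the small count added to a 0.

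Ordering all peaks by relative HELLS enrichment and cutting them into 4 equal bins gave, low to high, 142, 206, 346 and 489 KI-open distal peaks and 500, 430, 299 and 153 promoter peaks. The median ATAC log2 fold change of KI over B6 in the same bins was −0.15, −0.12, 2.27 and 3.01, that of H3K9ac was 0.23, 0.31, 2.90 and 4.33, and the median GC content 66.2%, 64.0%, 49.9% and 45.6%. Most of this order is the mixture of classes. Within the KI-open class the bins had median ATAC log2 fold changes of 2.86, 3.03, 3.16 and 3.27 and median H3K9ac log2 fold changes of 4.33, 4.46, 4.60 and 4.82. Across those 1183 peaks the Spearman rho of HELLS enrichment was 0.24 with the ATAC and 0.17 with the H3K9ac log2 fold change (1181 peaks). It was 0.29 with peak width, −0.18 with GC content and −0.43 with input counts per kb, which enters the enrichment itself. Peaks share their libraries, so these are descriptions without a test.

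In the F1 hybrids, which carry a B6 and a CAST copy of each site in the same nuclei, KI-open distal peaks were read less from the CAST copy. Their median CAST share of allele counts, over peaks with at least 20 allele counts, was 32.5% and 33.3% in the ATAC libraries and 26.6% in the H3K9ac library. Promoter peaks had medians of 49.4%, 49.5% and 48.9%, and all regions with allele counts had 49.4%, 49.6% and 48.9%, so that the table as a whole was near balance. Of 1148 KI-open distal peaks in ATAC library 1, 974 (84.8%) had a CAST share under 50% and 419 (36.5%) under 25%, against 55.6% and 3.59% of promoter peaks. Within the KI-open class the median CAST share, from the bin of lowest to that of highest HELLS enrichment, was 36.0%, 33.6%, 32.3% and 27.5% in ATAC library 1, 37.7%, 33.3%, 34.1% and 28.2% in ATAC library 2 and 34.7%, 26.8%, 26.99% and 22.1% in H3K9ac. The highest bin had the lowest share in all 3 libraries. HELLS itself was measured in KI testis, where both copies are B6. The KI-open class was likewise set by opening on B6 copies, a choice that could favour sites with a low CAST share. Promoter peaks were classed by position, but they too were called on B6 copies. The part of these choices in the allele shares was not tested.

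**Figure D4:**
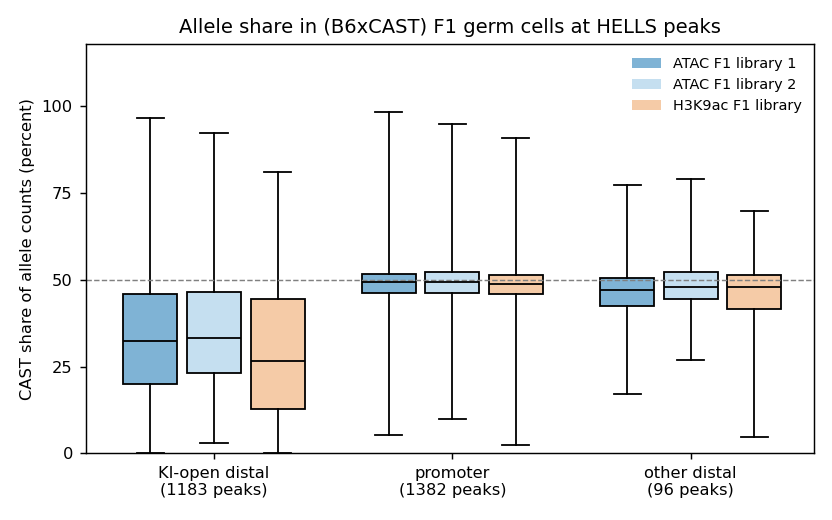
Boxes give the quartiles and median, and whiskers the full range, of the CAST share of allele counts (y axis, percent) over the HELLS peaks of each class (x axis) in each F1 library; the dashed line marks 50%. KI-open distal peaks have medians of 32.5%, 33.3% and 26.6%, and promoter peaks lie close to the line.

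A shared DNA sequence was looked for in 300 bp windows around the middle of peaks. A matrix 24 positions long was built from 645 KI-open distal peaks on odd-numbered autosomes and scored on both strands, and its match frequencies were read on even-numbered autosomes. A match is a score that 5% of ATAC regions without a HELLS peak reached. Bases held by at least 50% of the aligned sites read CTTGGNCTGTGACTTTTC, N standing for any base. On even-numbered autosomes 351 of 538 KI-open distal peaks (65.2%, exact 95% interval 61.05% to 69.3%) held a match, against 38 of 631 promoter peaks (6.02%, 4.30% to 8.17%) and 20 of 43 other distal peaks (46.5%, 31.2% to 62.3%). Among ATAC regions without a HELLS peak, 5.20% of a sample of 4000 held one, and 40.3% of the 2083 regions that were more open in KI did. The match lay within 50 bp of the middle in 66.1% of the KI-open distal peaks that held one. It did so in 65.8% of such promoter peaks (25 of 38) and 55.0% of such other distal peaks. No such share was computed for ATAC regions without a HELLS peak or for matches placed at random. KI-open distal peaks with a match had a median HELLS log2 fold change of 0.36, against 0.27 in those without. Their median CAST share in ATAC library 1 was 31.3%, against 39.2%. Promoter peaks with a match had a median HELLS log2 fold change of 0.25, against −0.19 in those without, and a median ATAC log2 fold change of KI over B6 of 2.50, against −0.17.

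**Figure D5:**
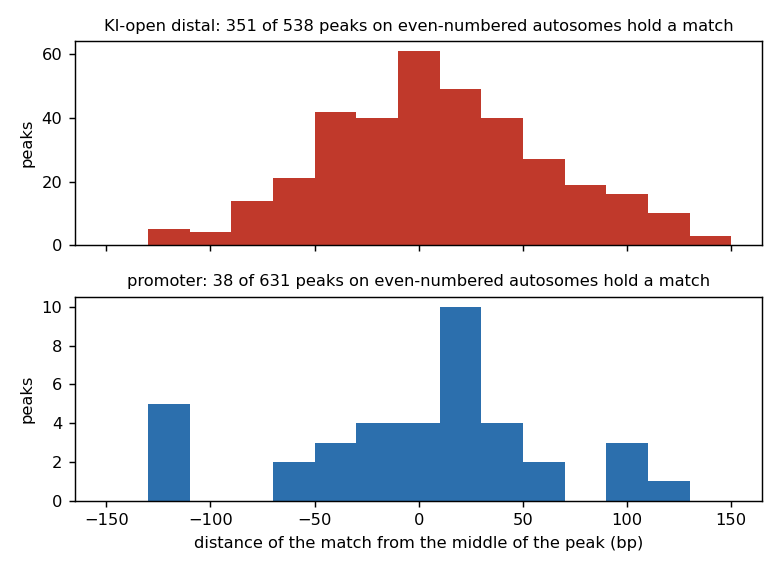
Histograms of the distance in bp (x axis) between the best match to the matrix and the middle of the peak, for KI-open distal peaks (top) and promoter peaks (bottom) on even-numbered autosomes; the y axis counts peaks. In the 351 KI-open distal peaks with a match, 66.1% of matches lie within 50 bp of the middle, and in the 38 promoter peaks with a match 65.8% do.

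Counting every word of 8 bases, either strand, without a matrix gave related words. TGTGACCT, chosen on odd-numbered autosomes, was in 10.8% of KI-open distal, 1.27% of promoter and 6.98% of other distal windows on even-numbered autosomes, beside 2.36% of 36962 ATAC regions without a HELLS peak. Any of the 6 leading words, which overlap one another (TGTGACCT, TGACCTTT, GGTCACAT, TGACTTTG, ATGTGACT and GTCACAGC), was in 33.3% of KI-open distal, 4.60% of promoter and 20.9% of other distal windows, beside 9.29% of the ATAC regions. In the printed windows, TGACTTTG is in the Scube2, Erc2 and Kcng1 sequences, and GTCACAGC is in the Kcng1 sequence on the minus strand. None of the 6 is in the Trpm6 and Zfp982 sequences. The Scube2 and Trpm6 peaks lie on odd-numbered autosomes, where the words were chosen.

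The DMC1 lists met the peaks differently. DMC1 coats the single-stranded ends of meiotic breaks. Peaks of the Hells CKO list overlapped 1012 of 1382 promoter peaks (73.2%), 8 of 1183 KI-open distal peaks (0.676%) and 19 of 96 other distal peaks (19.8%). Over all 2661 peaks the count was 1039 (39.0%). Peaks of the Hells het list overlapped 58 promoter peaks (4.20%), 24 KI-open distal peaks (2.03%) and 4 other distal peaks (4.17%). Over all peaks the count was 86 (3.23%). The genotypes came as 1 list each, and lists of different lengths cannot be compared as levels. The share of all promoters that overlap each list was not computed here. The DMC1 animals are labelled by Hells alone, so the lists hold little on breaks at sites that open with the CAST allele of Prdm9. Promoter peaks with a Hells CKO DMC1 peak had a median HELLS log2 fold change of −0.19 and 4 higher calls of 1012, and those without had −0.03 and 17 higher calls of 370; 115 of those 370 were more open in KI.

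In Hells CKO germ cells, without a block, no HELLS peak lay in a region whose ATAC signal passed the test. Among all regions measured there, 0 of 95033 regions (0%) were higher and 363 (0.382%) lower in Hells CKO, against Hells wt, by edgeR at an adjusted p under 0.05, with 150 higher and 1318 lower at an unadjusted p under 0.05. Of 1415 autosomal regions that hold a HELLS peak, 0 were higher and 0 lower by edgeR at an adjusted p under 0.05 and by DESeq2, and 0 and 3 at an unadjusted p under 0.05. A fit with the library numbers of the sample descriptions as a block gave 2 lower. Of the KI-open distal peaks, 117 of 1183 were in the table, against 1279 of 1382 promoter peaks. The 117 had a median of 4.66, 5.51 and 4.97 CPM in Hells CKO, against 4.54 and 5.20 CPM in Hells wt. Promoter peaks had 56.7, 49.2 and 43.6 CPM in Hells CKO, against 61.9 and 48.4 CPM in Hells wt. The genotypes overlap in both classes, and the Hells libraries are labelled by Hells alone, so these data hold little on the sites that open with the CAST allele of Prdm9.

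HELLS peaks at promoters lay at genes of many kinds. Of 20780 coding autosomal genes, 1472 (7.08%) had a peak within 1000 bp of a transcription start; the lists that follow were read against that share, without a test. Peaks were at 7 of 20 ribosomal protein genes (35.0%; among them Rpl5, Rpl10a and Rps6), 5 of 12 housekeeping genes (41.7%; among them Actb, Ywhaz and Eef1a1) and 4 of 11 chromatin remodeller genes (36.4%; Smarca4, Smarca5, Chd4 and Ep400). Of genes for PRDM9, HELLS and their partners, 2 of 10 had one: Ewsr1, whose RNA-binding product interacts with PRDM9, and Cdca7l, a relative of the HELLS partner gene Cdca7. Prdm9 and Hells had none. Among germ cell genes, peaks were at Sycp1, Sycp2 and Syce2 of the synaptonemal complex (3 of 15 genes of that list), at Hsf2bp, whose product binds BRCA2 (1 of 21 break and strand invasion genes), at Dazl (1 of 16 spermatogonial and meiotic entry genes) and at Ddx4 (1 of 14 piRNA pathway genes). Trim28 and Cbx1, of heterochromatin, had peaks (2 of 15, 13.3%), as had the histone genes H3f3a and H3f3b (2 of 16, 12.5%). Of the somatic lists, 0 of 10 Sertoli cell genes and 0 of 12 Leydig, peritubular and endothelial genes had a peak. Both lists are too short for 0 to be told apart from the 7.08% of all coding genes.

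None of these promoter peaks was called higher or lower in HELLS. The Eef1a1 peak, at a translation factor gene (chr9:78480817-78481776), had 106 and 101 counts in HELLS libraries, against 13 in IgG and 24 in input (log2 fold change 0.32, SE 0.295, edgeR adjusted p = 0.608). The Sycp1 peak (chr3:102935454-102936063) had 65 and 45 counts in HELLS libraries, against 7 in IgG and 19 in input (log2 fold change 0.02, SE 0.380, edgeR adjusted p = 0.986). The Ddx4 peak (chr13:112651727-112652639) had 91 and 65 counts in HELLS libraries, against 15 in IgG and 23 in input (log2 fold change −0.16, SE 0.308, edgeR adjusted p = 0.839). All 3 had a log2 fold change within about an SE of 0, the level of a typical peak, so a difference from it was not detectable at these counts.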

How the data were processed

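HELLS was measured by ChIP-seq in KI testis (2 HELLS libraries, 1 IgG, 1 input), beside ATAC-seq and H3K9ac tables of germ cells. The deposited tables held raw read counts per region, whole numbers that the authors had not normalised. The F1 table held estimated counts per allele, deposited for a B6 and a CAST copy of each region, and shares were computed from them as deposited. The submitters' processing notes name CASAVA, BWA 0.7.15, Bowtie 0.12.9, MACS 1.4.2 and the build mm10; no source used here says which tool made which table, how reads were filtered or where reads with several positions were placed. By their names, 8 columns of the deposited tables belonged to no listed sample and were left out, as were 56 repeated rows of Hells ATAC. The KI and B6 ATAC columns show only the strain, so their replicate numbers are names.

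Counts were tested with edgeR 4.0.16 under R 4.3.3 (TMM scaling, filterByExpr, quasi-likelihood F test, Benjamini-Hochberg adjustment, threshold 0.05). Scaling and adjustment ran over autosomal peaks for HELLS and over the whole table otherwise. With edgeR came limma 3.58.1, and DESeq2 1.42.0 was an alternative. For HELLS, the spread was estimated from the HELLS pair alone, since IgG and input each had 1 library and were assumed to vary like it. TMM over peaks sets the typical peak near 0 and hides any difference shared by all peaks. log2 CPM used a prior count of 2. Peaks were joined to regions by an overlap of at least 1 bp; coordinates are 1-based. Chromosome lengths were checked against GRCm38.p6, and genes were taken from GENCODE M21; of 184 listed genes 180 were matched. Fits were tested on simulated data. For HELLS, 86 of 200 simulated 2-fold changes and 177 of 200 simulated 4-fold changes were called in the right direction, with 6 false calls in each run. Many 2-fold differences between peaks would thus go uncalled.

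Peaks named in the text are autosomal. They are the 8 with the lowest p among the higher and among the lower calls and the 4 with the most HELLS counts. For each of 12 gene lists, up to 2 promoter peaks with the most HELLS counts were added, of which some are given by name only. The classes, members and lists were chosen with earlier results of these data known. Alternatives were other scalings, no filter, DESeq2, other treatments of the controls, other overlaps and windows, and leaving out each library; one, leaving out the 25 peaks with most input per kb, was added after seeing the data. H3K4me3 tables were not used here.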

Additional observations from a re-analysis of the deposited data

How the results depend on the processing

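The class contrast kept its direction under every alternative run, and the number of HELLS calls did not. Of 134 higher and 22 lower peaks, DESeq2 gave 11 and 9, IgG and input as one control group 17 and 9, IgG alone 84 and 53, input alone 28 and 8, and TMM factors from promoter peaks alone 193 and 10; without either HELLS library, with IgG and input as one control group so that a spread could be had from fewer samples, counts were 0 to 0 in both directions. Without the 25 peaks with most input per kb, 12 were lower, since 10 of the 22 lower peaks are among those left out. The median HELLS log2 fold change of KI-open distal peaks (0.32) was 0.26 with input alone and 0.23 to 0.30 without a HELLS library; that of promoter peaks (−0.16) was −0.21 with IgG alone, −0.20 with total counts and −0.20 to −0.16 without a HELLS library; that of other distal peaks (−0.01) was −0.0513 with input alone and −0.0820 to −0.0702 without a HELLS library. The difference between the highest and lowest bins of HELLS enrichment (ATAC 3.16, H3K9ac 4.10) was 2.97 and 3.60 with IgG alone and, for ATAC, 3.22 with input alone; without a HELLS library it was 3.14 to 3.27 for ATAC and 3.91 to 4.27 for H3K9ac. At regions with a HELLS peak the median ATAC log2 fold change of KI over B6 (0.99) was 0.95 with DESeq2, 0.95 with RLE size factors, 0.78 with an overlap of 50% of the peak and 0.92 to 1.02 without a library, with 1287 to 1341 higher and 0 to 701 lower calls. For H3K9ac the median (0.82) was 0.82 to 0.91 without a library, with 0 to 1703 higher and 0 to 95 lower calls, and DESeq2 gave 1 lower. For Hells CKO over Hells wt the median ATAC value (−0.12) was −0.283 to 0.0504 without a library, reversed at 0.0504 without Hells wt replicate 1, and with the library numbers of the descriptions as a block, which the labels do not call a batch, 2 regions were lower. The causes of these shifts were not tested. Named peaks and lists lost a call or a gene in 42 fits, 34 of them without a HELLS library; the peaks near Zfp987, Kcng1 and Ide lost their call against input alone, and the heterochromatin list had 1 gene with a peak instead of 2 at a window of 500 bp. No paired analysis was possible because the labels give the HELLS, IgG and input libraries no shared replicate numbers; the KI and B6 ATAC columns are numbered 1 and 2 in each strain, but these numbers belong to no labelled sample and were not used as pairs. IgG, with a median of 9 counts a peak, limits the precision of every peak.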

Other observations

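Some peaks outside the KI-open class were also in regions with more H3K9ac in KI than in B6. The 59 HELLS peaks that lay in no region of the KI and B6 ATAC table were joined to the H3K9ac table in 42 cases; 34 of these lay in a region called higher in KI than in B6 (edgeR, adjusted p under 0.05), with a median H3K9ac log2 fold change of 4.12, and their median GC content was 45.6%. Of the other distal peaks, the 28 in state 1 had a median H3K9ac log2 fold change of 0.01 and 0 higher calls, whereas the 56 of 68 outside state 1 that were in the table had 3.05 and 40 higher calls. These 68 hold every other distal peak of the 59 above, the rest of which are promoter peaks, so the sets overlap. The HELLS log2 fold change was −0.13 in the 28 and −0.0037 in the 68.

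The 24 KI-open distal peaks that overlapped a DMC1 peak of Hells het testis had a median HELLS log2 fold change of 0.41 and a median width of 679 bp, against 0.32 and 598 bp in the other 1159. Of these 24, 5 were in the Hells ATAC table, with a median log2 fold change of Hells CKO over Hells wt of −0.62, against 0.04 in 112 KI-open distal peaks without such a DMC1 peak; none passed the test, and the difference was not tested.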
